A study of Homo sapiens with 4 samples.

Results

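The BCL2 family decides whether the outer membrane of the mitochondrion is opened during apoptosis. Pro-survival members such as BCL-XL (BCL2L1) and MCL1 hold the effectors BAX and BAK1 in check, and the effectors, once released, assemble into pores that let cytochrome c out. The BH3-only members BID, BAD, BBC3 (PUMA), PMAIP1 (NOXA), BCL2L11 (BIM) and BIK sense stress and bind the groove of the pro-survival proteins through a short helix, the BH3 region. NOXA binds mainly MCL1, BAD binds mainly BCL-XL and its close relatives, and BIM and PUMA bind all of the pro-survival proteins. The balance between these classes is widely studied in lung cancer cells because it sets how readily chemotherapy kills them.

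The 10 genes described here, BCL2L1, MCL1, BAX, BAK1, BID, BAD, BBC3, PMAIP1, BCL2L11 and BIK, were taken from the expression table by exact gene name. All 10 were found, with 49 listed transcripts, among 16371 genes and 56389 transcripts. Their level in a library is the sum of FPKM over the listed transcripts of the gene ID, where FPKM is fragments scaled by transcript length and by library depth.

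The libraries came from clusters of A549, an established lung adenocarcinoma cell line, in a study whose title names chemoresistance and stem-cell-like behaviour. The tested clusters carried a short hairpin against the phosphatase gene DUSP23 (shDUSP23, genotype given as DUSP23 knockdown) and the control clusters carried a mock construct (shMock, genotype given as wild type), with 2 libraries each. All 4 titles hold the suffix SUS, which they do not explain, and the sources used here do not give the hairpin sequence, the number of clones or a drug treatment. They do not state whether the 2 libraries of a group came from separate cultures, and p-values here reflect no more than the scatter of these 4 libraries.

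DUSP23 was at 1.71 and 2.71 FPKM in the shDUSP23 libraries, against 29.96 and 35.9 FPKM in the shMock libraries (log2 fold change -3.64, SE 0.22; limma with Benjamini-Hochberg adjustment, BH-adjusted p = 3.12e-05). Depth, recovered from the step size of low values, was 26997600 and 42234200 fragments in shDUSP23 and 21274400 and 25245000 in shMock. All 6 markers of simple epithelium that were looked up were above a mean of 1 FPKM, and they summed to 2014 and 2085 FPKM in shDUSP23, against 2650 and 2561 FPKM in shMock. Among them CDH1 was at 6.20 and 8.14 FPKM in shDUSP23 against 22.4 and 21.5 FPKM in shMock, and EPCAM at 3.47 and 3.999 FPKM in shDUSP23 against 5.83 and 7.05 FPKM in shMock. The falls were smaller for KRT8 (916.6 and 998.9 FPKM in shDUSP23, 1144 and 1153 FPKM in shMock), KRT18 (702.2 and 695.6 against 975.6 and 922.2) and KRT7 (380.3 and 369.9 against 496.5 and 449.8). KRT19 overlapped between the groups, at 5.73 and 8.96 FPKM in shDUSP23 against 6.02 and 7.38 FPKM in shMock. Endothelial markers were listed for 0 of 4 genes. Of 7 leukocyte markers the table listed 2, which went opposite ways, and PTPRC, CD3E, LYZ and TYROBP were among those it did not list. CD68 was at 94.9 and 130.9 FPKM in shDUSP23 against 24.4 and 23.5 FPKM in shMock, whereas CD14 was at 0.98 and 0.995 FPKM in shDUSP23 against 4.68 and 8.01 FPKM in shMock. Fibroblast markers summed to 4.6 and 5.01 FPKM in shDUSP23, against 3.37 and 2.73 FPKM in shMock. The part of these differences in the results below was not tested. In bulk libraries, fewer cells of a type and less RNA per cell cannot be told apart.

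The BH3 region is what the members share in sequence, and the lines below show the codons at its core as read from GENCODE release 29 transcripts on GRCh38. Each run is 27 bases of 1 coding exon, and the capitals mark the codon of the conserved leucine and that of the conserved aspartate which follows it. Several transcripts discussed below do not hold these codons in their annotated coding frame, which is why the codons are shown.
PMAIP1-202, chr18:59902670-59902696, plus strand: caaCTCaggagatttggaGACaaactg
BBC3-202, chr19:47226585-47226611, minus strand: cagCTGcggcggatggcgGACgacctc
BIK-201, chr22:43127713-43127739, plus strand: cggCTGgcctgcatcgggGACgagatg
BCL2L11-206, chr2:111150100-111150126, plus strand: gagTTGcggcgtattggaGACgagttt
BID-211, chr22:17739421-17739447, minus strand: cacCTCgcccaggtcgggGACagcatg
BAD-201, chr11:64271628-64271654, minus strand: gagCTCcggaggatgagtGACgagttt
BAX-201, chr19:48955784-48955810, plus strand: tgtCTCaagcgcatcgggGACgaactg
BAK1-202, chr6:33575393-33575419, minus strand: cagCTCgccatcatcgggGACgacatc
BCL2L1-201, chr20:31721928-31721954, minus strand: gcgCTGagggaggcaggcGACgagttt
MCL1-202, chr1:150578871-150578897, minus strand: accTTAcgacgggttgggGATggcgtg
The aspartate codon was GAC in each of these transcripts except MCL1-202, where it was GAT, while the leucine codon varied among CTC, CTG, TTG and TTA. In BID-211 the same spacing of a leucine and an aspartate codon occurred at 2 places, and the one shown is the BH3 region known for BID.

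By level, the sensitizer gene PMAIP1 stood first in every library, followed by MCL1. The mean over the libraries placed PMAIP1 at rank 135 and MCL1 at rank 423 of 13691 tested genes, and BIK at rank 12960. BAX and BCL2L1 came next at similar levels, and their order differed between shDUSP23 replicate 2, where BCL2L1 was higher, and the other 3 libraries. BBC3 and BID overlapped in level, with BBC3 above BID in every library except shMock replicate 2. BAD, BAK1 and BCL2L11 lay between 9.90 and 26.1 FPKM, and BIK was lowest in every library. The neighbours BAK1 and BCL2L11 changed places between the groups: BAK1 was at 13.6 and 13.5 FPKM in shDUSP23, above BCL2L11, and at 9.90 and 12.3 FPKM in shMock, below it.

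**Figure D1:**
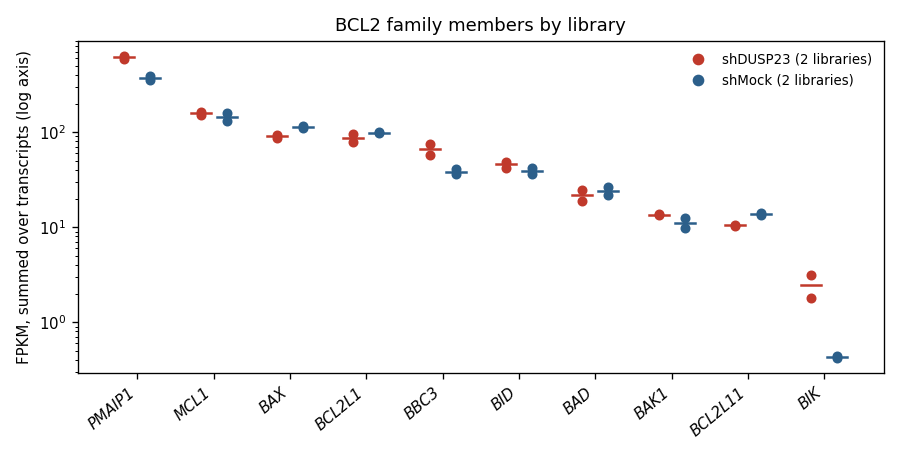
Summed FPKM (log axis) of the 10 BCL2 family genes in each library, ordered by mean level. Points are libraries, short lines are the means of the 2 shDUSP23 or 2 shMock libraries, and PMAIP1, BBC3 and BIK show shDUSP23 points clear above the shMock points.

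Among the BH3-only genes, PMAIP1 and BBC3 rose in shDUSP23, as did BIK, which entered the test only through its shDUSP23 values, and BAX, an effector, fell. Of the 10 genes, 3 (BIK included) were called higher and 1 lower by limma (BH-adjusted p under 0.05), and 6 did not pass. Over all tested genes 45.3% were called, 23.1% higher and 22.2% lower, so 4 of 10 members called is close to the share of all genes. The median log2 fold change was 0.18 over the members and 0.03 over all tested genes. The groups did not overlap for 8 of the 10 members, MCL1 and BAD being the exceptions, and they did not overlap for 75.5% of all tested genes, 39.3% with shDUSP23 higher and 36.2% with it lower.

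PMAIP1 (ENSG00000141682, chr18:59899996-59904305 on GRCh38, plus strand) encodes NOXA, a BH3-only protein that binds MCL1 and speeds its breakdown. Its level was 636.5 and 584.3 FPKM in the shDUSP23 libraries, against 391.4 and 351.3 FPKM in the shMock libraries. Both shDUSP23 libraries were above both shMock libraries. The means were 610.4 ± 36.9 FPKM in shDUSP23 and 371.4 ± 28.4 FPKM in shMock (SD, n = 2 each), a ratio of 1.64. On the log2 scale the fitted difference was 0.72 (SE 0.12; limma, BH-adjusted p = 0.0020). PMAIP1 was called in all 17 alternatives tried, with log2 fold changes from 0.64 to 1.37. The highest were 1.37 after quantile normalization, 1.15 with GC content and length corrected within each library, and 1.05 with libraries scaled to equal sums.

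BBC3 (ENSG00000105327, chr19:47220822-47232766, minus strand) encodes PUMA, which binds all pro-survival members and is a classic target of p53. It was at 56.9 and 74.5 FPKM in the shDUSP23 libraries, against 40.7 and 36.2 FPKM in the shMock libraries, and the groups did not overlap. The means were 65.7 ± 12.5 FPKM in shDUSP23 and 38.5 ± 3.18 FPKM in shMock (SD, n = 2 each), a ratio of 1.71. The shDUSP23 libraries differed more from each other than the shMock libraries did. The log2 fold change was 0.75 (SE 0.15; limma, BH-adjusted p = 0.0047). BBC3 was called in all 17 alternatives, with log2 fold changes from 0.54 with the GC content and length correction to 1.09 with equal sums, and its highest adjusted p, 0.0497, came without shMock replicate 2.

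BIK (ENSG00000100290, chr22:43110750-43129712, plus strand) encodes a BH3-only protein of the endoplasmic reticulum and was the weakest of the members. It was at 1.79 and 3.11 FPKM in the shDUSP23 libraries, against 0.44 and 0.42 FPKM in the shMock libraries. These levels stood for about 46 fragments (exact Poisson 95% interval 33.7 to 61.4) and 125 fragments (104.0 to 148.9) in shDUSP23, and for 9 (4.12 to 17.1) and 10 (4.80 to 18.4) in shMock, intervals that cover counting error only. The shDUSP23 intervals lay clear of the shMock intervals. BIK passed the filter of a mean of 1 FPKM only through the shDUSP23 libraries, so among tested genes it had to differ. The log2 fold change was 1.63 (SE 0.36; limma, BH-adjusted p = 0.0065). Without shMock replicate 1 the limma adjusted p was 0.0509 and without shMock replicate 2 it was 0.0604, which ended the call.

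The other 3 BH3-only genes did not pass the test. BCL2L11 (ENSG00000153094, chr2:111120914-111168445, plus strand), which encodes BIM, was at 10.2 and 10.6 FPKM in shDUSP23, against 13.5 and 14.2 FPKM in shMock. Both shDUSP23 libraries were below both shMock libraries, and the log2 fold change was -0.39 (SE 0.15; limma, BH-adjusted p = 0.064). It passed with median-ratio rescaling (-0.43, adjusted p = 0.0481) and with the GC content and length correction (-0.45, adjusted p = 0.0384, where 44.5% of all genes were called), and was at -0.07 with equal sums. BID (ENSG00000015475, chr22:17734138-17774665, minus strand), whose product is cut by caspase-8 to link death receptors to mitochondria, was at 42.4 and 49.0 FPKM in shDUSP23, against 36.1 and 41.8 FPKM in shMock (limma log2 fold change 0.23, adjusted p = 0.204). BAD (ENSG00000002330, chr11:64269830-64284704, minus strand), whose product is held by 14-3-3 proteins when phosphorylated, was at 24.5 and 19.0 FPKM in shDUSP23, against 22.0 and 26.1 FPKM in shMock, and the groups overlapped (limma log2 fold change -0.15, adjusted p = 0.494). BAD overlaps GPR137 on the opposite strand. The sources used here do not state whether the libraries kept strand, and without strand the reads of the pair cannot be told apart.

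Together the 6 BH3-only genes summed to 772.3 and 740.6 FPKM in shDUSP23, against 504.2 and 470.0 FPKM in shMock. Without PMAIP1 the sums were 135.8 and 156.3 FPKM in shDUSP23, against 112.8 and 118.7 FPKM in shMock, so PMAIP1 made up most of the transcript sum of this class in every library. The ratio of PMAIP1 to its binding partner MCL1 was 3.89 and 3.82 in shDUSP23, against 2.49 and 2.68 in shMock. The ratio of BBC3 to BCL2L1 was 0.73 and 0.77 in shDUSP23, against 0.42 and 0.36 in shMock. Neither of these ratios overlapped between the groups, but that of BAX to BCL2L1 did, at 1.21 and 0.89 in shDUSP23 against 1.14 and 1.16 in shMock. The ratio of BCL2A1, a pro-survival gene outside the members, to BCL2L1 did not overlap either. It was 0.37 and 0.30 in shDUSP23, against 0.17 and 0.15 in shMock. The share of all gene pairs whose ratio does not overlap was not computed. The pro-survival pair MCL1 and BCL2L1 summed to 241.3 and 249.6 FPKM in shDUSP23, against 254.9 and 231.5 FPKM in shMock, and overlapped. The effectors BAX and BAK1 summed to 107.9 and 99.95 FPKM in shDUSP23, against 121.5 and 128.9 FPKM in shMock, and did not. Sums and ratios describe transcript levels and do not measure protein.

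**Figure D2:**
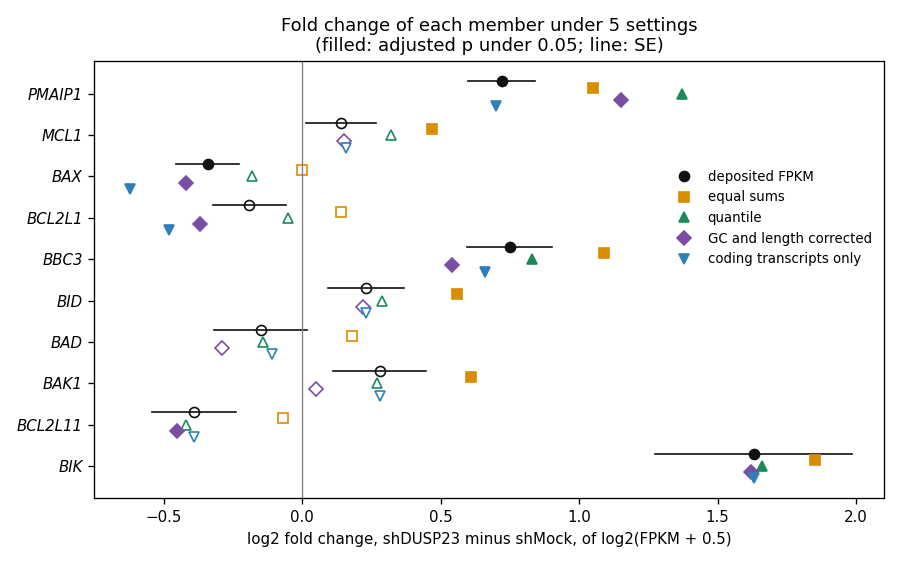
Log2 fold change (shDUSP23 minus shMock, on log2(FPKM + 0.5)) of each gene from the deposited FPKM (black, line is the SE) and under 4 other settings, with filled symbols at adjusted p under 0.05. PMAIP1, BBC3 and BIK are filled and right of 0 throughout, while the BAX symbols run from -0.62 to 0. BIK entered the test only through its shDUSP23 values.

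BAX and BAK1 are the pore-forming effectors, and of the pair BAX passed the test; the difference between them was not tested. BAX (ENSG00000087088, chr19:48954815-48961798, plus strand) was at 94.3 and 86.4 FPKM in the shDUSP23 libraries, against 111.6 and 116.6 FPKM in the shMock libraries. Both shDUSP23 libraries were below both shMock libraries, and the log2 fold change was -0.34 (SE 0.11; limma, BH-adjusted p = 0.0406). The call ended with quantile normalization (-0.18, adjusted p = 0.219), with eBayes without a trend (adjusted p = 0.12) and when any 1 library was left out. Those adjusted p in limma were 0.0578 and 0.186 without shDUSP23 replicate 1 and 2, and 0.0879 and 0.15 without shMock replicate 1 and 2. With equal sums BAX was at 0.00 (adjusted p = 0.994), while the median of all genes moved to 0.34, the calls came to 50.7% of all genes (38.4% higher and 12.3% lower) and the share of higher genes among those called moved from 51.0% to 75.7%. BAK1 (ENSG00000030110, chr6:33572552-33580276, minus strand) was at 13.6 and 13.5 FPKM in shDUSP23, against 9.90 and 12.3 FPKM in shMock, and did not pass the test (limma log2 fold change 0.28, SE 0.17, adjusted p = 0.196).

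Restricted to protein-coding transcripts, BAX fell further. Its 4 protein-coding transcripts summed to 51.3 and 52.6 FPKM in the shDUSP23 libraries, against 78.9 and 81.2 FPKM in the shMock libraries. The 6 others, which are annotated as retained introns or as targets of nonsense-mediated decay, summed to 43.0 and 33.8 FPKM in shDUSP23, against 32.7 and 35.4 FPKM in shMock. The protein-coding sum was thus lower in both shDUSP23 libraries, whereas the sum of the others overlapped between the groups. In a limma fit on protein-coding sums over all genes BAX was at -0.62 (SE 0.11, BH-adjusted p = 0.0043), where 23.2% of all genes were called lower, 21.8% higher and 45.0% in either direction. Transcripts not annotated as protein-coding held 45.6% and 39.2% of BAX in shDUSP23, against 29.3% and 30.3% in shMock.

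The protein-coding difference of BAX lay mostly in BAX-202, which encodes the 192-residue form known as BAX alpha. It was at 19.1 and 17.7 FPKM in shDUSP23, against 33.0 and 45.1 FPKM in shMock, and the groups did not overlap (log2 fold change -1.05, SE 0.19; limma over transcripts, BH-adjusted p = 0.066). BAX-201, the 218-residue form known as BAX beta, was at 27.4 and 26.8 FPKM in shDUSP23, against 33.4 and 29.1 FPKM in shMock (log2 fold change -0.20, adjusted p = 0.418). Neither transcript passed the test over all transcripts. As gene sums, 75.5% of all tested genes did not overlap between the groups. The share without overlap over all transcripts, here and below, was not computed. The retained-intron transcript BAX-211, at 9.65 and 15.5 FPKM in shDUSP23 against 6.43 and 9.76 FPKM in shMock, overlapped between the groups. BAX-212, a target of nonsense-mediated decay, was at 13.5 and 10.4 FPKM in shDUSP23 against 10.2 and 8.05 FPKM in shMock (limma adjusted p = 0.375) and did not. The forms differ at the end of the fifth exon, after base chr19:48960914, where BAX-202 is spliced to the last exon at 48961532 and BAX-201 reads on into the intron. The coding bases on both sides of that point are shown, with capitals after it, since they differ between BAX-202 and BAX-201. Retained-intron transcripts of BAX may hold the same unspliced bases, which was not checked. Reads across the unspliced bases therefore need not come from BAX-201.
BAX-202, plus strand: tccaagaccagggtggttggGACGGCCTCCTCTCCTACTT
BAX-201, plus strand: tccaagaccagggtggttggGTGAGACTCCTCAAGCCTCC

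The pro-survival genes did not pass the test as gene sums. MCL1 (ENSG00000143384, chr1:150574176-150579738, minus strand), a short-lived protein on which many lung cancer cells depend, was at 163.5 and 153.1 FPKM in shDUSP23, against 157.2 and 131.2 FPKM in shMock. The groups overlapped, and the log2 fold change was 0.14 (SE 0.13; limma, BH-adjusted p = 0.394). It passed only with equal sums (0.47, adjusted p = 0.0164), where the median of all genes was 0.34. BCL2L1 (ENSG00000171552, chr20:31664452-31723989, minus strand) was at 77.8 and 96.6 FPKM in shDUSP23, against 97.8 and 100.3 FPKM in shMock. Both shDUSP23 libraries were below both shMock libraries, 1 of them narrowly, and the log2 fold change was -0.19 (SE 0.13; limma, adjusted p = 0.268), which was 0.14 with equal sums. BCL2L1 overlaps the antisense gene ABALON, and reads of the pair cannot be told apart without strand.

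BCL2L1 differed more between the groups in its protein-coding transcripts than in its gene sum. The 10 protein-coding transcripts summed to 64.5 and 66.4 FPKM in the shDUSP23 libraries, against 90.8 and 92.2 FPKM in the shMock libraries. The 2 others, BCL2L1-213 and BCL2L1-215, summed to 13.3 and 30.2 FPKM in shDUSP23, against 6.99 and 8.05 FPKM in shMock. The first sum was lower and the second higher in both shDUSP23 libraries, with a wide gap between the 2 shDUSP23 libraries in the second. In the limma fit on protein-coding sums BCL2L1 was at -0.48 (SE 0.11, BH-adjusted p = 0.0111), and with the GC content and length correction of the gene sums at -0.37 (adjusted p = 0.0278).

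The share of BCL2L1 in transcripts that are not protein-coding was 17.1% and 31.3% in shDUSP23, against 7.15% and 8.03% in shMock. A limma fit of the ratio of protein-coding to other transcripts, added after the data were seen, called 0 of 5620 genes at a BH-adjusted p under 0.05, while 576 had an unadjusted p under 0.05. In it BCL2L1 was at -1.84 (SE 0.52, adjusted p = 0.463) and BAX at -0.78 (SE 0.35, adjusted p = 0.516). With 0 genes called, this fit cannot decide whether the proportion changed for either gene. What size of change it can recover was not simulated.

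**Figure D3:**
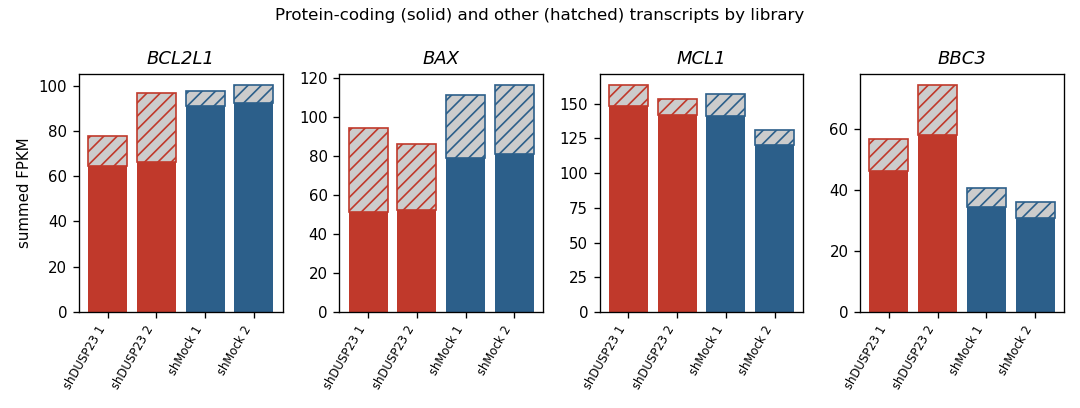
Summed FPKM of protein-coding transcripts (solid) and of other transcripts (hatched, stacked on top) of BCL2L1, BAX, MCL1 and BBC3 in each library, shDUSP23 in red and shMock in blue. The solid bars of BCL2L1 and BAX are lower in both shDUSP23 libraries, at 64.5 and 66.4 and at 51.3 and 52.6 FPKM, and those of BBC3 are higher.

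Among single BCL2L1 transcripts, BCL2L1-201 and BCL2L1-203 are the complete models and encode the same protein of 233 residues, the long form BCL-XL. BCL2L1-201 was at 28.1 and 22.4 FPKM in shDUSP23, against 42.7 and 40.03 FPKM in shMock (log2 fold change -0.71, SE 0.16; limma, BH-adjusted p = 0.087). BCL2L1-203 was at 14.3 and 11.6 FPKM in shDUSP23, against 23.0 and 17.7 FPKM in shMock (log2 fold change -0.63, SE 0.21; limma, adjusted p = 0.162). Both were lower in both shDUSP23 libraries without passing, as was the incomplete model BCL2L1-205, at 3.81 and 2.94 FPKM in shDUSP23 against 8.44 and 8.06 FPKM in shMock (limma adjusted p = 0.073). BCL2L1-215, annotated as a target of nonsense-mediated decay, was at 8.30 and 12.3 FPKM in shDUSP23, against 2.64 and 2.85 FPKM in shMock (log2 fold change 1.71, SE 0.28; limma, adjusted p = 0.054), and did not pass either. The other protein-coding models of BCL2L1 with a GENCODE 29 entry are incomplete at an end, so none could be assigned to the short form BCL-XS.

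For MCL1, the long pro-survival form MCL1-202 of 350 residues made up 88.0% and 91.7% of the gene in shDUSP23, against 82.7% and 88.1% in shMock. It was at 143.9 and 140.4 FPKM in shDUSP23, against 130.0 and 115.5 FPKM in shMock (log2 fold change 0.21; limma, adjusted p = 0.297). The short form MCL1-201 of 271 residues, which lacks the second exon and is known to favour death, was at 2.44 and 1.62 FPKM in shDUSP23, against 1.74 and 0.71 FPKM in shMock. It is named as the short form although its mean was under 5 FPKM. Its groups overlapped, and it held at most 1.49% of the gene in any library. MCL1-205, a coding model of 197 residues, was at 1.818 and 0 FPKM in shDUSP23, against 9.385 and 3.037 FPKM in shMock. The groups of MCL1-205 did not overlap, but it did not pass (limma log2 fold change -2.457, SE 0.954, adjusted p = 0.2068). Its share of MCL1 was 1.112% and 0% in shDUSP23, against 5.972% and 2.315% in shMock.

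Of 37453 transcripts tested one by one, 1554 were called (4.15%, with 1.7% called higher). Of the members' 49 listed transcripts, not all of which were tested, 2 were among them, both of PMAIP1 and both higher. That count is close to the share of all transcripts. PMAIP1-202 encodes NOXA itself in 54 residues and was at 582.7 and 527.5 FPKM in shDUSP23, against 368.1 and 330.8 FPKM in shMock (log2 fold change 0.67, SE 0.11; limma, adjusted p = 0.055). PMAIP1-201 was at 38.0 and 42.8 FPKM in shDUSP23, against 17.2 and 14.7 FPKM in shMock (log2 fold change 1.32, SE 0.15; limma, BH-adjusted p = 0.036). PMAIP1-203, a retained-intron transcript, was at 15.8 and 13.99 FPKM in shDUSP23, against 6.14 and 5.91 FPKM in shMock (log2 fold change 1.24, SE 0.18; limma, adjusted p = 0.045). In all 3 both shDUSP23 libraries were above both shMock libraries. The calls of the 2 minor transcripts ended when any 1 library was left out, with no filter, without the eBayes trend and with the replicate number as a block, each of which called 0 member transcripts.

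PMAIP1-201 carries an extra middle exon of 151 bases, chr18:59900428-59900578, and its model of 136 residues does not hold the BH3 codons in frame. Its share of PMAIP1 was 5.97% and 7.33% in shDUSP23, against 4.39% and 4.17% in shMock. The junctions after the first exon are shown because they separate the form with the BH3 codons in frame from the form without. Both leave base 59900235, PMAIP1-202 to base 59902647 and PMAIP1-201 to base 59900428, and capitals mark the second exon.
PMAIP1-202, plus strand: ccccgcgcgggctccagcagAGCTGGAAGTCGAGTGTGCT
PMAIP1-201, plus strand: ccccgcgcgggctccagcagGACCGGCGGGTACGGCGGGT

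BBC3 also has forms with and without the BH3 codons in frame. BBC3-202, a model of 131 residues known as PUMA beta, holds them and was the main transcript, at 32.3 and 38.6 FPKM in shDUSP23 against 22.5 and 21.1 FPKM in shMock (log2 fold change 0.68, SE 0.15; limma, adjusted p = 0.083). BBC3-201, of 101 residues and without them, was at 2.06 and 1.77 FPKM in shDUSP23 against 6.87 and 4.50 FPKM in shMock (log2 fold change -1.33, SE 0.33; limma, adjusted p = 0.098). BBC3-204, of 261 residues and also without them in frame, was at 9.98 and 14.9 FPKM in shDUSP23 against 3.83 and 3.60 FPKM in shMock (log2 fold change 1.59, SE 0.27; limma, adjusted p = 0.056). The groups did not overlap for any of the 3, but BBC3-201 was lower in shDUSP23 while the gene and the other 2 were higher. None of the 3 passed this test, and as gene sums 75.5% of all tested genes did not overlap either. The retained-intron transcript BBC3-205 was at 6.50 and 13.3 FPKM in shDUSP23 against 3.395 and 2.46 FPKM in shMock (limma adjusted p = 0.115), again higher without passing.

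BBC3-201 held 3.63% and 2.38% of BBC3 in shDUSP23, against 16.9% and 12.4% in shMock. In limma's diffSplice, which sets a transcript against the others of its gene, BBC3-201 was the only member transcript called (BH-adjusted p = 0.0133), where 0.926% of 32628 transcripts were called, and BBC3 the only member gene (adjusted p = 0.0345), where 1.68% of 8448 genes were called. On simulated data with few transcripts changed and a separate spread drawn for each, 84 of 97 diffSplice calls were false. That share need not hold for these libraries, but with such a result the calls carry little weight. A limma fit of each transcript against the rest of its gene, added after the data were seen, called 0 of 33221 transcripts (2972 at an unadjusted p under 0.05) and gave BBC3-201 an adjusted p of 0.495, but it also recovered 0% of changes of 2 on the log2 scale in simulation. The estimate rested on about 75 and 101 fragments in shDUSP23, against 197 and 153 in shMock. BBC3-201 joins the first exon to the last and leaves out the exon of 191 bases, chr19:47226564-47226754, that holds the BH3 codons, and the junctions that leave the first exon at base 47232515 are shown with capitals after them.
BBC3-202, minus strand: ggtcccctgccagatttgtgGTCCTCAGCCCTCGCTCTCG
BBC3-201, minus strand: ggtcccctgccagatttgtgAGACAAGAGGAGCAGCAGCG

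Summed over protein-coding models, BBC3 transcripts with the BH3 codons in frame were at 34.2 and 41.4 FPKM in shDUSP23, against 23.7 and 22.9 FPKM in shMock. Those without them were at 12.0 and 16.7 FPKM in shDUSP23, against 10.7 and 8.10 FPKM in shMock. Both classes were higher in both shDUSP23 libraries. For BID, models with the codons were at 27.6 and 31.6 FPKM in shDUSP23 against 28.8 and 32.2 FPKM in shMock, so the groups overlapped. Models without them in frame, BID-204 and BID-210, were at 14.8 and 17.4 FPKM in shDUSP23 against 7.21 and 9.55 FPKM in shMock, and did not overlap. The third exon of BID-204 holds these bases, but its annotated coding sequence does not. BID-204, of 99 residues, was at 14.5 and 17.3 FPKM in shDUSP23 against 6.996 and 7.86 FPKM in shMock (log2 fold change 1.04, SE 0.19; limma, adjusted p = 0.062). Its share of BID was 34.3% and 35.2% in shDUSP23, against 19.4% and 18.8% in shMock.

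**Figure D4:**
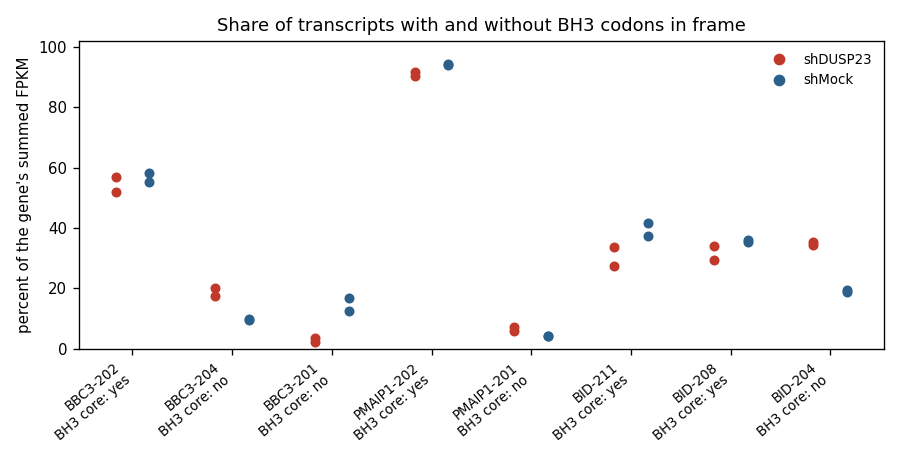
Share of the gene's summed FPKM (percent) held by single transcripts of BBC3, PMAIP1 and BID with or without the BH3 codons in frame, with 2 shDUSP23 libraries (red) and 2 shMock libraries (blue). The shares of BBC3-201 are lower in shDUSP23, at 3.63% and 2.38%, and those of BBC3-204, PMAIP1-201 and BID-204 are higher.

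PMAIP1, the member with the highest level, was looked up in RefSeq's promoter table (GRCh38.p14), which held 8 of the 10 members. The stretch shown is chr18:59899746-59899947, plus strand, 202 bases that end just before the first exon of the GENCODE 29 models. Capitals mark 4 GC boxes (GGGCGG on either strand) and, near the end, 1 half-site of the cyclic AMP response element (TGACG, here on the opposite strand), the element known to bind factors of the CREB and ATF family.
PMAIP1 upstream: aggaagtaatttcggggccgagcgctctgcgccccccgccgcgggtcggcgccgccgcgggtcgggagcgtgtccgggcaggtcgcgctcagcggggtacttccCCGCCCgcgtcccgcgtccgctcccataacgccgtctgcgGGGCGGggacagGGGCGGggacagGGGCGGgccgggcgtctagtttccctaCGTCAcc
Among 35116 promoter windows of 250 bases, 42.6% held a GC box and 21.2% held TGACG on either strand, so neither is rare. The AP-1 site TGANTCA (6.57% of windows), the C/EBP-ATF element TGATGNAA (3.14%), the E-box CACGTG (6.34%) and the half-site of p53 (5.57%) each had 0 matches in the stretch. These matches describe the letters only.

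Outside the 10 members, other genes of the mitochondrial pathway were read from 9 lists of 81 genes. Of these, 72 were tested and 29 were called, 17 higher and 12 lower, with a median log2 fold change of 0.08 against 0.03 over all tested genes. The called share of these lists was thus near the 45.3% of all genes. Of the other pro-survival genes 2 of 2 tested were higher. BCL2A1, a pro-survival gene known as a target of NF-kB, was at 28.7 and 28.5 FPKM in shDUSP23, against 16.3 and 14.8 FPKM in shMock (log2 fold change 0.86, SE 0.14; limma, BH-adjusted p = 0.0014). BCL2L2, which encodes BCL-W, was at 29.96 and 31.7 FPKM in shDUSP23, against 22.3 and 23.6 FPKM in shMock (log2 fold change 0.41, SE 0.13; limma, adjusted p = 0.0297). Both groups of libraries were apart for both genes. The BCL2L2 call ended with the GC content and length correction (0.16, adjusted p = 0.287) and without either shMock library or shDUSP23 replicate 2, and the gene shares its strand with the read-through gene BCL2L2-PABPN1. BCL2 itself was listed at 0.58 and 0.59 FPKM in shDUSP23, against 0.49 and 0.37 FPKM in shMock, too low to be tested.

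HRK, a BH3-only gene first known from neurons, was at 3.29 and 2.19 FPKM in shDUSP23, against 0.86 and 0.70 FPKM in shMock (log2 fold change 1.32, SE 0.32; limma, BH-adjusted p = 0.0102). It passed the filter only through the shDUSP23 libraries, and its call ended without shMock replicate 1 (adjusted p = 0.0579) or 2 (0.0894). BOK, a relative of BAX and BAK1, was at 6.76 and 7.31 FPKM in shDUSP23, against 5.91 and 5.85 FPKM in shMock, and did not pass (limma log2 fold change 0.24, adjusted p = 0.315, -0.15 with the GC content and length correction). Of 7 other BCL2-like and BNIP genes 2 were higher and 0 lower, where 23.1% of all tested genes were called higher and 22.2% lower. BNIP3, a hypoxia-induced receptor for the removal of mitochondria, averaged 63.2 ± 5.26 FPKM in shDUSP23 and 36.7 ± 0.51 FPKM in shMock (SD, n = 2 each; limma adjusted p = 0.0014). BCL2L13 averaged 34.8 ± 2.80 FPKM in shDUSP23 and 23.0 ± 2.67 FPKM in shMock (SD, n = 2 each; limma adjusted p = 0.0103), and its call ended without shMock replicate 2 (adjusted p = 0.0931) and on protein-coding transcripts alone (0.113).

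Downstream of the family, 5 of 9 tested genes for proteins that are released from mitochondria or form the outer membrane channel fell and 0 rose, with a median log2 fold change of -0.60, where 22.2% of all tested genes were called lower and their median was 0.03. CYCS, the gene of cytochrome c, averaged 92.8 ± 8.26 FPKM in shDUSP23 and 246.3 ± 22.9 FPKM in shMock (SD, n = 2 each; log2 fold change -1.40, SE 0.12; limma, adjusted p = 0.000117). The channel genes VDAC3 (-0.90, adjusted p = 0.00097) and VDAC1 (-0.60, adjusted p = 0.0029), AIFM1 (-0.91, adjusted p = 0.0019) and ENDOG (-1.42, adjusted p = 0.0029) were the other 4 in limma. VDAC1 did not pass with equal sums (-0.26, adjusted p = 0.089).

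Of 6 tested caspase substrates and nucleases, XKR8, a phospholipid scramblase gene, was higher, at 9.72 ± 1.34 FPKM in shDUSP23 and 4.69 ± 1.46 FPKM in shMock (SD, n = 2 each; limma adjusted p = 0.0096), and GSN (-0.63, adjusted p = 0.0086) and PARP1 (-0.49, adjusted p = 0.0243) were lower. With equal sums GSN and PARP1 did not pass (-0.29 and -0.16), and leaving out shMock replicate 1 ended the calls of GSN and PARP1, shMock replicate 2 those of XKR8 and PARP1, and shDUSP23 replicate 2 that of PARP1. Of 18 kinases and binding partners of BH3-only proteins 3 were higher and 3 lower, fewer calls than the 45.3% of all tested genes. PIM1, whose kinase phosphorylates BAD, averaged 15.2 ± 0.43 FPKM in shDUSP23 and 5.32 ± 0.16 FPKM in shMock (SD, n = 2 each; limma log2 fold change 1.43, adjusted p = 0.000325). PIM3 was also higher (0.61, limma adjusted p = 0.0115), except with the GC content and length correction (0.25, adjusted p = 0.272) and without shMock replicate 2 (0.101). DYNLL1, a dynein light chain that binds BIM and BMF, was lower (-0.67, limma adjusted p = 0.0018), and so was MAPK8, which encodes the kinase JNK1 (-0.96, adjusted p = 0.0088), although not without shMock replicate 1 (0.0818) or 2 (0.0505) or on protein-coding transcripts alone (0.29).

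Of 9 tested ubiquitin ligases, deubiquitinases and their partners for MCL1, BIM and NOXA, 1 was higher, FBXW7, the substrate receptor of a ligase for MCL1, at 6.83 ± 1.44 FPKM in shDUSP23 and 4.07 ± 0.45 FPKM in shMock (SD, n = 2 each; limma adjusted p = 0.0379), and 0 were lower. Its call ended with no filter, with quantile normalization and without either shMock library or shDUSP23 replicate 1. Of 11 tested transcription factors and stress genes listed for BH3-only genes 6 were higher and 2 lower, with a median of 0.75, where 23.1% of all tested genes were called higher and 22.2% lower. This list, like the others, was chosen with earlier results of these data known. JUN, an AP-1 subunit, averaged 168.9 ± 11.0 FPKM in shDUSP23 and 57.2 ± 7.25 FPKM in shMock (SD, n = 2 each; log2 fold change 1.56, SE 0.13; limma, adjusted p = 9.1e-05). DDIT3, which encodes CHOP, averaged 179.9 ± 24.5 FPKM in shDUSP23 and 68.7 ± 9.62 FPKM in shMock (SD, n = 2 each; log2 fold change 1.38, SE 0.14; limma, adjusted p = 0.00021). TRIB3, a target of CHOP and ATF4, was higher (0.98, limma adjusted p = 0.0003), while E2F1 (-1.32, adjusted p = 0.0023) and ATF4 (-0.35, adjusted p = 0.0322) were the 2 lower ones. With equal sums the median of all genes was 0.34, close in size to the ATF4 difference. The value of ATF4 under that setting is not given here.

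**Figure D5:**
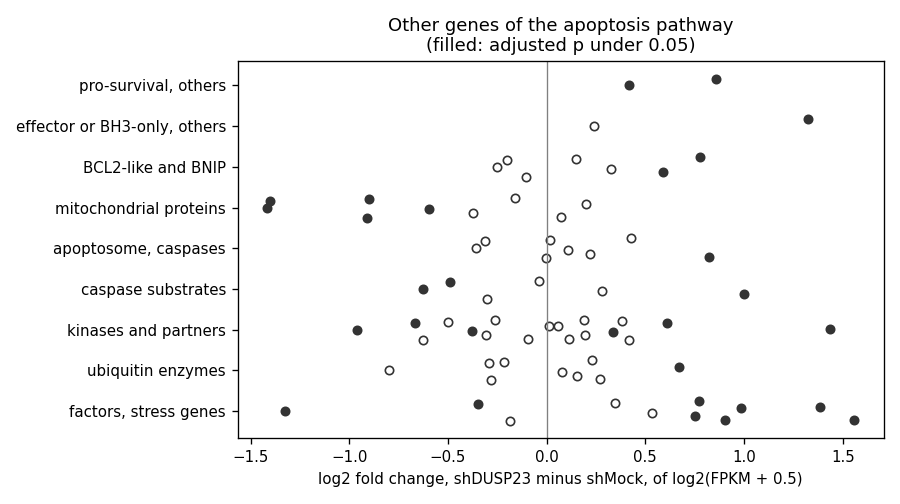
Log2 fold change (shDUSP23 minus shMock, on log2(FPKM + 0.5)) of the 72 tested genes in 9 lists of the apoptosis pathway, 1 list per row, with filled points at adjusted p under 0.05. In the row of mitochondrial proteins the 5 filled points lie left of 0, and in the row of transcription factors and stress genes 6 lie right of it.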

How the data were processed

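RNA of 2 shDUSP23 and 2 shMock libraries was sequenced with an mRNA kit on a NovaSeq 6000, per the labels. The authors deposited FPKM values, 1 per Ensembl transcript and library. Per the submitters' processing notes, STAR 2.7.1a, DESeq2 1.32.0 and GRCh38 were used. Which program made the FPKM, from which annotation, and whether strand was kept is not given in the sources used. Rows were transcripts, so FPKM were summed per gene ID. The 13691 genes whose mean reached 1 FPKM entered limma 3.58.1 (lmFit, then eBayes with its trend option) as log2(FPKM + 0.5). Calls were two-sided at 0.05 after Benjamini-Hochberg (BH) adjustment; this scale understates changes of low genes. Transcripts were tested the same way (37453), and diffSplice was run within genes. In simulation the gene fit recovered 0%, 45.8% and 96.4% of genes changed by 0.5, 1 and 2 on the log2 scale with 4 false among 90 calls, and the transcript fit recovered 0%. These simulations changed far fewer genes and transcripts than the real fits called, so the shares need not hold there.

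Fragments were recovered from single-transcript genes with GENCODE 29 lengths: 90.8% to 92.8% of values up to 50 fragments were whole within 0.1 fragment. The length was known for 93.6% of all transcripts and 43 of 49 member transcripts. Count models were not run, since values of genes with several transcripts are estimates. The members and the lists were chosen with earlier results of these data known. The naming rule covered all members, their transcripts with a mean of at least 5 FPKM or called, and in each list up to 4 called genes with the smallest p; outside it, MCL1-201 was named as the short form, and other genes where a count was 5 or fewer. Not every transcript it covers is given with values. The list of apoptosome and caspase genes is counted in the totals but not reported here by itself. Python 3.11.15, numpy 2.4.6, pandas 2.3.3, scipy 1.17.1 and matplotlib 3.10.9 were used.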

Additional observations from a re-analysis of the deposited data

How the results depend on the processing

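The 2 libraries per group bound every result, and the low transcripts rest on few fragments. PMAIP1 and BBC3 passed in all 17 alternatives. BIK passed in 14 of the 16 in which it was tested, as the filter of 5 FPKM left it out. It entered the filtered fits only through its shDUSP23 values, so among the genes tested there it had to differ. BAX passed in 10 of 17, BCL2L1 and BCL2L11 in 3, MCL1, BAK1 and BID in 1 (equal sums) and BAD in 0.

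The count of all genes called, 6202, went to between 3258 (without shMock replicate 2) and 6391 when 1 library was left out, that of members, 4, to between 2 and 3, and that of the lists, 29, to between 15 and 30. Member transcripts called, 2, were 0 with no filter, without the trend, with the replicate block and with the block plus the GC content and length correction. They were 9 at 5 FPKM and 7 with equal sums. The shares of all transcripts called under these settings are not given here. Usage calls, 2, were 0 at 5 FPKM, 1 with the block, 0 against the rest of the gene and from 0 to 6 with 1 library left out. Same-numbered libraries did not deviate together from their group means (Pearson r 0.05 across 13691 genes). With 2 libraries per group this cannot show whether the replicate numbers paired the samples. A replicate block called 6707 genes and the same count of members, 4.

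Members called lower, 1, were 0 with equal sums, quantile normalization or no trend. They were 2 with median-ratio rescaling or coding transcripts only, and 3 with the GC content and length correction. Members called higher, 3, were 6 with equal sums, where 38.4% of all tested genes were called higher and 12.3% lower. Of all tested genes, 22.2% were called lower in the main fit and 23.2% on coding transcripts only. With quantile normalization 3033 of 13691 were called lower, and 2645 of 13691 without the trend. With median-ratio rescaling 3169 of 13685 were called lower, and 2985 of 13691 with the GC content and length correction.

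With equal sums the log2 fold change turned sign for BCL2L1 (0.14), BAD (0.18), BAD-201 (0.16), BAX-201 (0.13), BID-211 (0.18), MCL1-203 (0.31) and MCL1-206 (0.20). The GC content and length correction, with or without the replicate block, turned BOK (-0.15), BID-208 (-0.11) and MCL1-203 (0.25). Leaving out 1 library at a time gave values on both sides of 0 for BAD (-0.33 to 0.03), BAD-201 (-0.45 to 0.11), BAX-207 (-1.0 to 0.23), BAX-209 (-3.73 to 0.36), BCL2L1-212 (-0.57 to 1.26), BID-208 (-0.14 to 0.25), MCL1-203 (-0.25 to 0.24), MCL1-206 (-0.38 to 0.17) and the coding ratio of BAD (-0.37 to 0.84). None of these values with a turned sign passed the test. The cause was not tested. diffSplice has no trend option and was not run with quantile or GC-corrected values.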

Other observations

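The RefSeq windows of 250 bases before the starts of the other members (GRCh38.p14) held different motifs, which describes their letters only. The E-box CACGTG had 4 matches in the BAX window and 1 each in the BBC3 window and some BID windows, against 6.34% of all windows with at least 1. GC boxes (GGGCGG, either strand) had 3 matches in the BCL2L11 window and 2 in the BAK1 window. The BAK1 window also held 1 half-site of p53, a motif in 5.57% of all windows. The BBC3 window held 1 AP-1 site (TGANTCA), a motif in 6.57% of all windows, and no GC box. This window, chr19:47232668-47232917 on the minus strand, reaches into the first exon of BBC3-202 and BBC3-201, which begins at base 47232766. The starts of BCL2L1, BID and BAD had several windows each, and GC boxes numbered 0 in both of BCL2L1 and from 0 to 4 in those of BID.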
